A study of Mus musculus with 4 samples.

Results

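The genes described here encode the Ca2+/calmodulin-dependent protein kinases and the catalytic subunits of calcineurin in the brain of Ids-ko and wild-type (wt) mice. They were chosen by name: Camk2a, Camk2b, Camk2d, Camk2g, Camk4, Camkk1, Camkk2, Camk1d, Ppp3ca and Ppp3cb. All 10 were present among the 12700 genes of the deposited count table. Ids-ko is a mouse on the C57BL/6 strain with the genotype Ids-/-, lacking iduronate 2-sulfatase, and models the lysosomal storage disorder Hunter syndrome. Its controls were wild type littermates of the same strain, and all mice were 9 months old. Polyadenylated RNA was pooled from 7 mice of each genotype and sequenced as 1 library per condition: CxH (Ids-ko) and CxWT (wt) from the cerebral cortex (Cx), MH (Ids-ko) and MWT (wt) from a block of midbrain, hippocampus and diencephalon in which the authors included the striatum (M). Each brain was dissected into both areas, so the Cx and M libraries of a genotype came from the same mice. With 1 library per condition there was no replicate, and the tests of pairs below compare 2 libraries, not 2 conditions. Which part of Ids is disrupted in this line is not given in the sources used here.

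When Ca2+ enters a neuron it binds calmodulin, and Ca2+/calmodulin then switches on both kinases and a phosphatase. CaMKII is an oligomer built from alpha, beta, gamma and delta subunits, encoded by Camk2a, Camk2b, Camk2g and Camk2d. It can phosphorylate its own regulatory segment and so stay active after Ca2+ has fallen, and it is best known for its part in the strengthening of excitatory synapses. The alpha subunit is typical of forebrain excitatory neurons. In the CaM kinase cascade, CaMKK1 and CaMKK2 phosphorylate CaMKI and CaMKIV, and CaMKIV acts in the nucleus on CREB. Calcineurin opposes these kinases at many substrates and dephosphorylates NFAT transcription factors. Its catalytic A subunit is encoded by Ppp3ca and Ppp3cb in brain and its regulatory B subunit by Ppp3r1.

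The regulatory segments are shown because calmodulin acts on the enzymes there and because reads from paralogs that are alike could be assigned to the wrong gene. The sequences are coding strands of GENCODE vM1 transcripts on NCBIM37 (mm9), written 5′ to 3′. For CaMKII they cover coding bases 850 to 945, starting at codon 284, just before the autophosphorylated threonine and running into the calmodulin-binding segment. Capitals mark the 36 positions at which the 3 printed sequences are not all alike.
Camk2b: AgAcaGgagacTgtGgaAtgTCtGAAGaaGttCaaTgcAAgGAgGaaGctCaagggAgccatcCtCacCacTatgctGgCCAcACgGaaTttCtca
Camk2d: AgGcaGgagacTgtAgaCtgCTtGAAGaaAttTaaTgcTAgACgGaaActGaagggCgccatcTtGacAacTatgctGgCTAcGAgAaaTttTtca
Camk2g: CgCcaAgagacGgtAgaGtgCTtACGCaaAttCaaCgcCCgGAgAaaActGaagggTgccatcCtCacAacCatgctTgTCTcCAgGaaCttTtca
These bases lie in exons 11 and 12 of each transcript. For Camk2b they are on the minus strand of chromosome 11, at 5888958 to 5889011 and 5888105 to 5888146. For Camk2d they are on the plus strand of chromosome 3, at 126500650 to 126500703 and 126501156 to 126501197. For Camk2g they are on the minus strand of chromosome 14, at 21579619 to 21579672 and 21579367 to 21579408. Camk2b and Camk2d shared 75 of the 96 bases, Camk2b and Camk2g 67, and Camk2d and Camk2g 69. The longest run of identical bases in any of these 3 pairs was 11. Camk2a, not printed, shared 86 of the 96 bases with Camk2b, with an identical run of 32, and it shared 77 with Camk2d and 73 with Camk2g. Of the 32 codons, Camk2a and Camk2d differed in the encoded residue at 0, Camk2a and Camk2b at 1, and Camk2a and Camk2g at 4.

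For calcineurin the calmodulin-binding segment of the A subunit is shown, from codon 397 of Ppp3ca and codon 407 of Ppp3cb. Capitals mark the 7 of 60 bases that differ.
Ppp3ca: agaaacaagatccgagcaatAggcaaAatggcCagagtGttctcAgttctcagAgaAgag
Ppp3cb: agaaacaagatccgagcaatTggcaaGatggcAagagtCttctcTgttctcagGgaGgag
The Ppp3ca bases are on the plus strand of chromosome 3, at 136584829 to 136584881 and 136591486 to 136591492, and the Ppp3cb bases on the minus strand of chromosome 14, at 21328638 to 21328690 and 21327937 to 21327943. None of the 7 differences changed the encoded residue: 0 of 20 codons differed in their amino acid. Reads that aligned to more than 1 gene were not counted by the authors, and the read length is not given in the sources used here. With a window of 50 bases and up to 2 mismatches, 1 window of the Camk2a transcript, 1 of Camk2g and 0 of Camk2b, Camk2d, Camkk1, Camkk2, Camk1d, Ppp3ca and Ppp3cb also matched a transcript of another gene. For Camk4 it was 166 windows (1.35%), all outside the coding sequence. On windows of this length the paralogs could be told apart nearly everywhere.

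As whole genes on the same build, Camk2b spans 5869647 to 5966365 and Camkk1 72832510 to 72855575 on chromosome 11, and Camk2d spans 126299220 to 126547972 and Ppp3ca 136333088 to 136600691 on chromosome 3. On chromosome 14 lie Ppp3cb, from 21318586 to 21365795, and Camk2g, from 21554097 to 21613310. Camkk2 spans 123183213 to 123229391 on chromosome 5 and Camk1d 5214503 to 5635561 on chromosome 2, and both Camk2a and Camk4 are on chromosome 18.

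The labels of the libraries were checked before any comparison. Ids itself, on chromosome X from 67596244 to 67618260, had 5211 reads in CxH, 11890 in CxWT, 13752 in the library labelled MH and 4496 in the library labelled MWT. Its log2 ratio was -1.39 ± 0.024 for CxH vs. CxWT and 1.24 ± 0.025 for MH vs. MWT, so that in M the library with the knock-out label held more Ids reads. The ± is the standard error from counting. The summed level of 15 markers of cortical excitatory neurons was 2252 and 2086 RPM, which are reads per 1000000 aligned reads, in CxH and MH, against 465 and 400.1 in CxWT and MWT. For midbrain and diencephalon neurons, 16 of 21 listed markers were in the table. They summed to 23.4 and 35.9 RPM in CxH and MH, against 531 and 454 in CxWT and MWT. In CxH 7 of these 16 markers, and in MH 4, had 3 reads or fewer, and En1 had 0 reads in MH. The markers thus set CxH with MH and CxWT with MWT, while the reads of Ids set CxH with MWT and CxWT with MH. So a difference between the genotype labels cannot be told apart from one between areas. All directions below are those of the labels, and the pairs that differ in both labels are given as well. The libraries held between 16380080 (MWT) and 23475080 (CxH) reads on genes.

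Among the 10 genes, most were higher in CxH than in CxWT and in the library labelled MH than in that labelled MWT, and Camk2a differed most. Calls required a p-value below 0.05 in a Poisson likelihood ratio test of the reads, and a log2 ratio no smaller than 0.7 in size. In CxH vs. CxWT 5 were called up (Camk2a, Camk2b, Camk4, Camkk2 and Ppp3ca) and 1 down (Camk2d). Of all genes 20.9% were called in this pair, 9.46% up and 11.5% down. Scaled by TMM factors, the calls over all genes turned from 1201 up and 1457 down to 1447 and 1135, and the 6 calls among the 10 genes remained the same in number. In MH vs. MWT 7 were called up (the same 5 with Camkk1 and Camk1d) and 0 down, against a background of 25.0% called, 12.3% up and 12.7% down. With a correction for GC content and length the 7 fell to 4, with 18.5% of all genes called. TMM factors left the 7 and turned the calls over all genes from 1556 up and 1614 down to 1774 and 1386. The median log2 ratio of the 10 genes was 0.67 in CxH vs. CxWT and 0.86 in MH vs. MWT, and that of all genes -0.093 and -0.066. These counts rest on few genes and on single libraries, and counting error is the only error they cover. In bulk tissue, fewer cells of a type and less RNA per cell cannot be told apart.

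**Figure D1:**
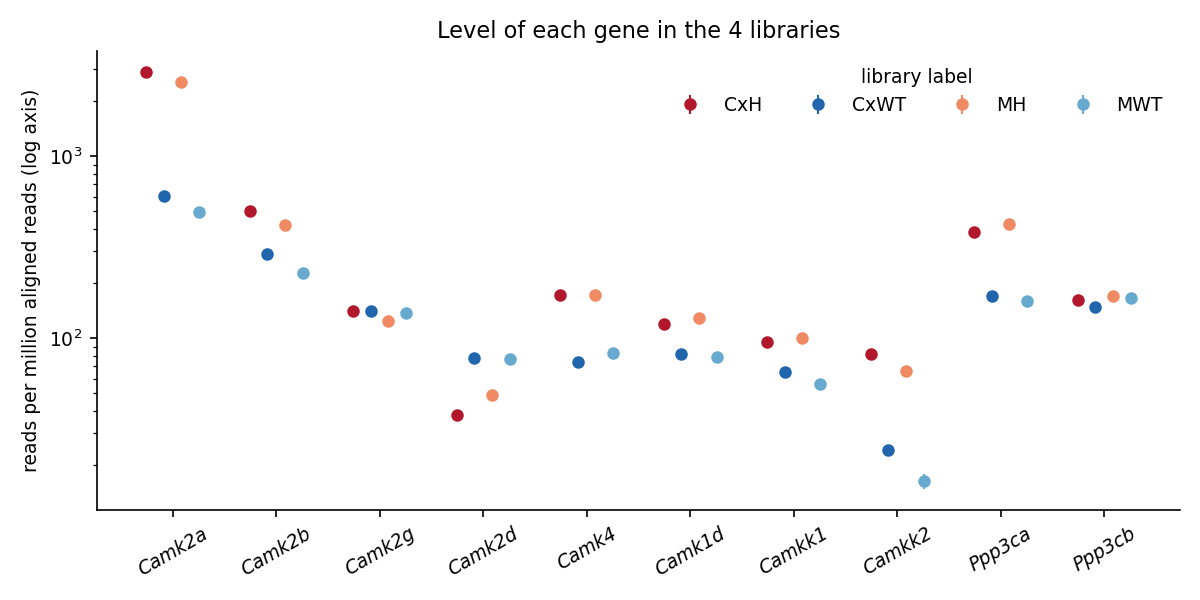
Level of each of the 10 genes in RPM (log axis), with 1 point per library. Vertical bars are exact Poisson 95% intervals and are mostly smaller than the points. Camk2a runs from 493 (MWT) to 2898 (CxH), Camk2d is the only gene lower in both Ids-ko libraries than in both wt libraries, and the 4 points of Camk2g and of Ppp3cb lie close together.

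Camk2a, the alpha subunit of CaMKII, was among the most abundant messages of the table. It had 2898 RPM (95% exact Poisson interval 2881 to 2915) in CxH, 604 (596 to 612) in CxWT, 2559 (2543 to 2576) in MH and 493 (484 to 501) in MWT. CxH and MH were high and CxWT and MWT low. By reads it ranked 3 of all genes in CxH and 4 in MH, but 66 in CxWT and 94 in MWT. Its log2 ratio was 2.26 ± 0.011 in CxH vs. CxWT (4.80-fold) and 2.38 ± 0.013 in MH vs. MWT (5.20-fold), and 80 and 94 genes had a higher ratio in these pairs.

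Camk2b encodes the beta subunit, which binds F-actin and places the holoenzyme in dendritic spines. Its level was 502 RPM (495 to 509) in CxH, 291 (285 to 297) in CxWT, 420.4 (414 to 427) in MH and 229 (224 to 235) in MWT. The order of the libraries was that of Camk2a with a smaller spread. For CxH vs. CxWT the log2 ratio was 0.79 ± 0.018, and for MH vs. MWT 0.88 ± 0.021, close to the threshold of 0.7. Corrected for the GC content and length of the transcripts, these were 0.57 and 0.46, and neither was called.

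Camk2d, the delta subunit, found in many tissues and prominent in heart, ran the other way. It had 37.9 RPM (36.0 to 39.9) in CxH, 77.8 (74.9 to 80.9) in CxWT, 48.8 (46.6 to 51.1) in MH and 76.8 (73.6 to 80.0) in MWT. Both wt libraries were high and their intervals overlapped. A log2 ratio of -1.04 ± 0.047 in CxH vs. CxWT was called down, and one of -0.65 ± 0.046 in MH vs. MWT did not reach the threshold. Scaled by column totals in place of aligned reads, the second ratio was -0.72 and was called.

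Camk2g, the gamma subunit, had 141 RPM (138 to 145) in CxH, 141 (137 to 145) in CxWT, 124 (120.3 to 128) in MH and 137 (133 to 142) in MWT. The intervals of CxH, CxWT and MWT overlapped and MH lay below them. The log2 ratio was 0.0067 (95% interval -0.050 to 0.063) in CxH vs. CxWT and -0.15 (-0.21 to -0.088) in MH vs. MWT, both far from the threshold.

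The make-up of CaMKII messages differed between the libraries. Camk2a took 81.0% of the reads on the 4 subunit genes in CxH (95% exact Clopper-Pearson interval 80.8 to 81.2) and 81.2% in MH (81.0 to 81.4), against 54.2% in CxWT (53.7 to 54.7) and 52.6% in MWT (52.0 to 53.2). Camk2b took 14.03% and 13.3% in CxH and MH and 26.1% and 24.5% in CxWT and MWT. Camk2g took 3.95% and 3.93% against 12.6% and 14.7%, and Camk2d 1.06% and 1.55% against 6.99% and 8.20%. Such shares are formed within a library and do not depend on its scaling. All 4 genes together summed to 3579 RPM in CxH and 3152 in MH, and to 1114 in CxWT and 936 in MWT. Between the wt and the Ids-ko labels, the levels of Camk2a and Camk2b were lower and that of Camk2d was higher. That of Camk2g was alike in the Cx libraries, and in M it was somewhat higher in MWT than in MH, with a log2 ratio of -0.15 for MH vs. MWT (95% counting interval -0.21 to -0.088) that stayed under the threshold. Divided by transcript length, the share of Camk2a was 77.3% in CxH and 77.5% in MH, and 48.7% in CxWT and 47.0% in MWT.

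**Figure D2:**
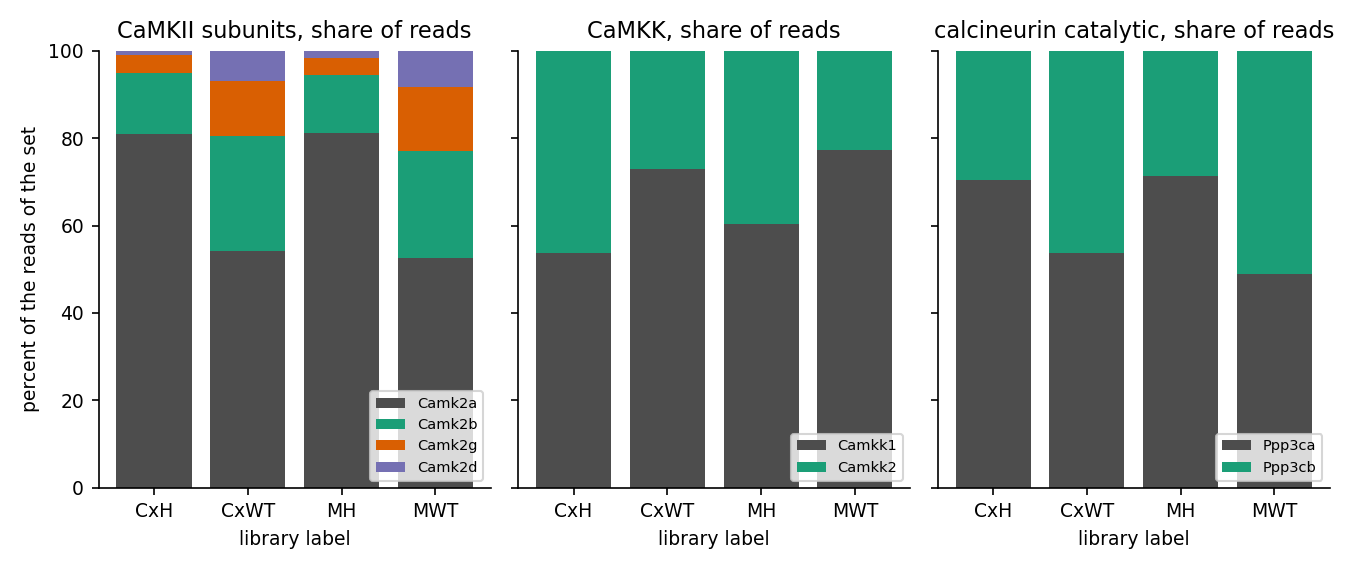
Stacked bars of the percent of reads within 3 sets of paralogs (CaMKII subunits, CaMKK, calcineurin catalytic subunits), 1 bar per library. Camk2a makes up 81.0% and 81.2% of CaMKII reads in CxH and MH and 54.2% and 52.6% in CxWT and MWT, and the shares of Camkk2 and Ppp3ca are also higher in CxH and MH.

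Of the kinases of the cascade, Camkk2 differed most. CaMKK2 is an upstream kinase that also phosphorylates AMPK. Its gene had 82.1 RPM (79.3 to 85.0) in CxH, 24.2 (22.6 to 25.9) in CxWT, 65.7 (63.2 to 68.4) in MH and 16.3 (14.9 to 17.9) in MWT. No 2 of these intervals overlapped, and MWT, with 473 reads, was lowest. The log2 ratio was 1.76 ± 0.057 in CxH vs. CxWT (3.39-fold) and 2.01 ± 0.072 in MH vs. MWT (4.02-fold).

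Camkk1, the other upstream kinase, had 95.1 RPM (92.1 to 98.3) in CxH, 65.3 (62.6 to 68.1) in CxWT, 100.04 (96.9 to 103) in MH and 55.9 (53.2 to 58.7) in MWT. The intervals of CxH and MH overlapped. The log2 ratio of 0.54 ± 0.039 in CxH vs. CxWT was under the threshold and that of 0.84 ± 0.043 in MH vs. MWT over it, and the GC and length correction moved the latter to 0.57, which was not called. Camkk2 thus took 46.3% of the reads of the CaMKK pair in CxH and 39.7% in MH, against 27.1% in CxWT and 22.6% in MWT.

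Camk4 encodes CaMKIV, the kinase of the cascade that acts in the nucleus. It had 173 RPM (168 to 177) in CxH, 73.7 (70.8 to 76.6) in CxWT, 173 (169 to 177) in MH and 82.9 (79.6 to 86.3) in MWT. CxH and MH were alike within counting error, with a log2 ratio of -0.0026 (95% interval -0.052 to 0.047). Between genotype labels it was 1.23 ± 0.034 in CxH vs. CxWT and 1.06 ± 0.034 in MH vs. MWT.

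Camk1d encodes the delta form of CaMKI. It had 120.1 RPM (117 to 124) in CxH, 81.4 (78.4 to 84.5) in CxWT, 129.7 (126 to 133) in MH and 79.2 (76.0 to 82.5) in MWT. Both wt libraries were low, with overlapping intervals. The log2 ratio was 0.56 ± 0.035 in CxH vs. CxWT and 0.71 ± 0.037 in MH vs. MWT. The second stood just over the threshold and its call was lost with column totals (0.65) and with the GC and length correction (0.68).

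The catalytic subunits of calcineurin differed from each other. Ppp3ca, encoding the alpha form, had 384 RPM (378 to 391) in CxH, 171 (167 to 175) in CxWT, 426 (419 to 433) in MH and 159.5 (155 to 164) in MWT. CxH and MH lay above both wt libraries. Its log2 ratio was 1.17 ± 0.022 in CxH vs. CxWT and 1.42 ± 0.024 in MH vs. MWT, called in both.

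Ppp3cb, encoding the beta form, had 162 RPM (158 to 166) in CxH, 148 (144 to 152) in CxWT, 171 (167 to 175) in MH and 167 (162 to 171) in MWT. CxWT was lowest, and CxH lay below MH by more than counting error, while the interval of MWT overlapped both of theirs. The log2 ratio was 0.13 (95% interval 0.077 to 0.19) in CxH vs. CxWT and 0.038 (-0.017 to 0.092) in MH vs. MWT. Of the reads on both genes, Ppp3ca took 70.4% in CxH and 71.3% in MH, and 53.6% in CxWT and 48.9% in MWT. The third catalytic gene, Ppp3cc, was low in every library, with 6.01 RPM in CxWT to 7.47 in MH. Ppp3r1, the regulatory subunit, had 406 RPM in CxH and 293 in CxWT, then 451 in MH and 321 in MWT, and its log2 ratios of 0.47 and 0.49 stayed under the threshold.

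**Figure D3:**
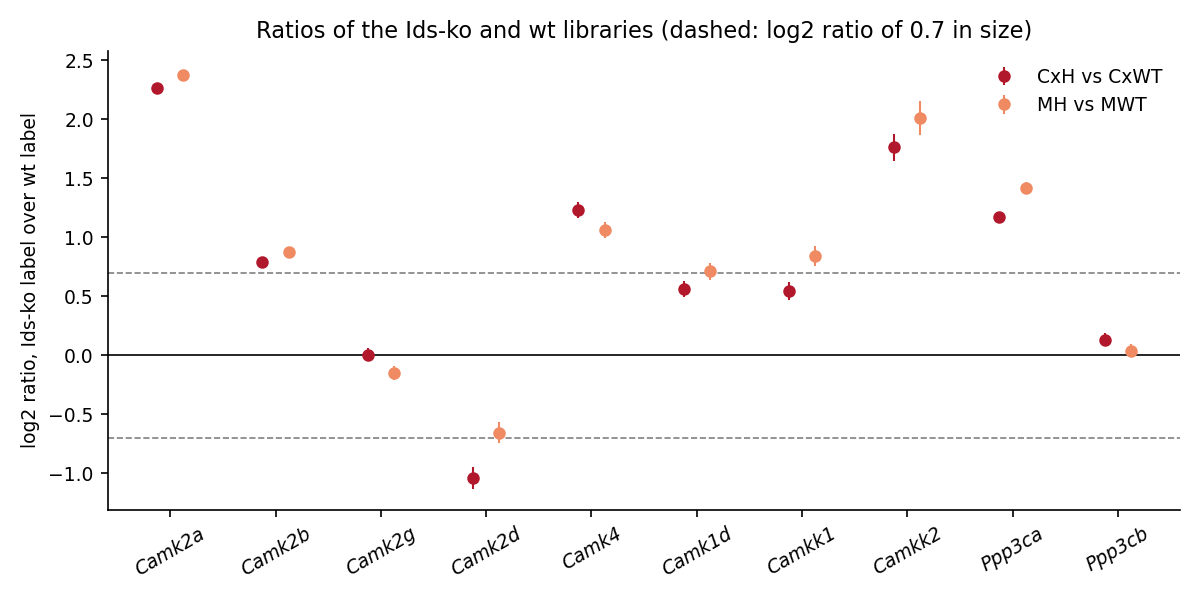
The log2 ratio of each gene in CxH vs. CxWT and in MH vs. MWT, with 95% intervals from counting, around the threshold of 0.7 in either direction (dashed lines). Camk2a and Camkk2 have the highest ratios, Camk2d lies below 0 in both pairs, and Camk2g and Ppp3cb lie near 0.

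Per kilobase of transcript, Camk2a had the highest level of the 10 genes in every library and Camk2b the next. Camk2a had 583 RPM per kilobase in CxH and 515 in MH, and 122 in CxWT and 99.1 in MWT, and in the same order Camk2b had 125, 105, 72.4 and 57.0. In CxH and MH, Ppp3ca, Ppp3cb and Camk2g followed in that order. In CxWT and MWT these 3 ran Ppp3cb, Camk2g and Ppp3ca, with overlapping intervals of Ppp3cb and Camk2g in CxWT. The lowest was Camk2d in CxH (8.65) and MH (11.1), Camk4 in CxWT (5.97) and Camkk2 in MWT (5.88). Other neighbours whose intervals overlapped were Camkk2 and Camkk1 in CxH, Camkk1 and Camk2d in CxWT, and Camk2d and Camkk1 in MWT. The level of the first gene was 67.4-fold that of the last in CxH, 46.3-fold in MH, 20.3-fold in CxWT and 16.9-fold in MWT.

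Between area labels under the same genotype label, no call was made among the 10 genes. Within these pairs the summed levels of the area markers were closer than between them, although 4 of the 16 markers of midbrain and diencephalon neurons were called down in CxH vs. MH (25.0%, against 3.50% of all genes) and 5 up in CxWT vs. MWT (31.3%, against 7.54%). The libraries of each pair differ in Ids reads, the log2 ratio of Ids being -1.44 between the CxH and MH libraries and 1.19 between CxWT and MWT. Whether they compare areas or genotypes therefore cannot be told apart, and an exchange of libraries or labels was not tested. In CxH vs. MH 0 were called, where 3.50% of all genes were called (2.43% up and 1.06% down), and their log2 ratios lay between -0.36 (Camk2d) and 0.32 (Camkk2). In CxWT vs. MWT 0 were called, where 7.54% of all genes were (5.43% up and 2.11% down), and the range was -0.17 (Ppp3cb) to 0.57 (Camkk2). Most of these ratios were nonetheless larger than counting error: Camk2a differed by 0.18 ± 0.0064 in CxH vs. MH and by 0.29 ± 0.016 in CxWT vs. MWT. Camk4, Camk2g, Camk2d and Camk1d had 95% intervals that held 0 in one of these pairs, Camk4 in CxH vs. MH and the other 3 in CxWT vs. MWT.

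The pairs that differ in both labels gave ratios like those of the labelled genotype comparisons. In CxH vs. MWT, which share low Ids reads, 6 genes were called up and 1 down, with 30.7% of all genes called (15.6% up, 15.1% down). With a correction for GC content and length, Camk2b (1.13, then 0.60) and Camkk1 (0.77, then 0.39) lost their calls and Camk1d gained one (0.60, then 0.72). Camk2a had a log2 ratio of 2.56 ± 0.013 there, Camkk2 2.33 ± 0.071 and Camk2d -1.02 ± 0.049. In MH vs. CxWT, which share high Ids reads, 4 were called up (Camk2a, Camk4, Camkk2 and Ppp3ca) and 0 down, with 15.3% of all genes called (6.41% up, 8.89% down). Camk2a had 2.08 ± 0.011, Camk4 1.23 ± 0.034, Ppp3ca 1.32 ± 0.022 and Camk2d -0.67 ± 0.044. The 6 pairs use the same 4 libraries and are not independent of each other.

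**Figure D4:**
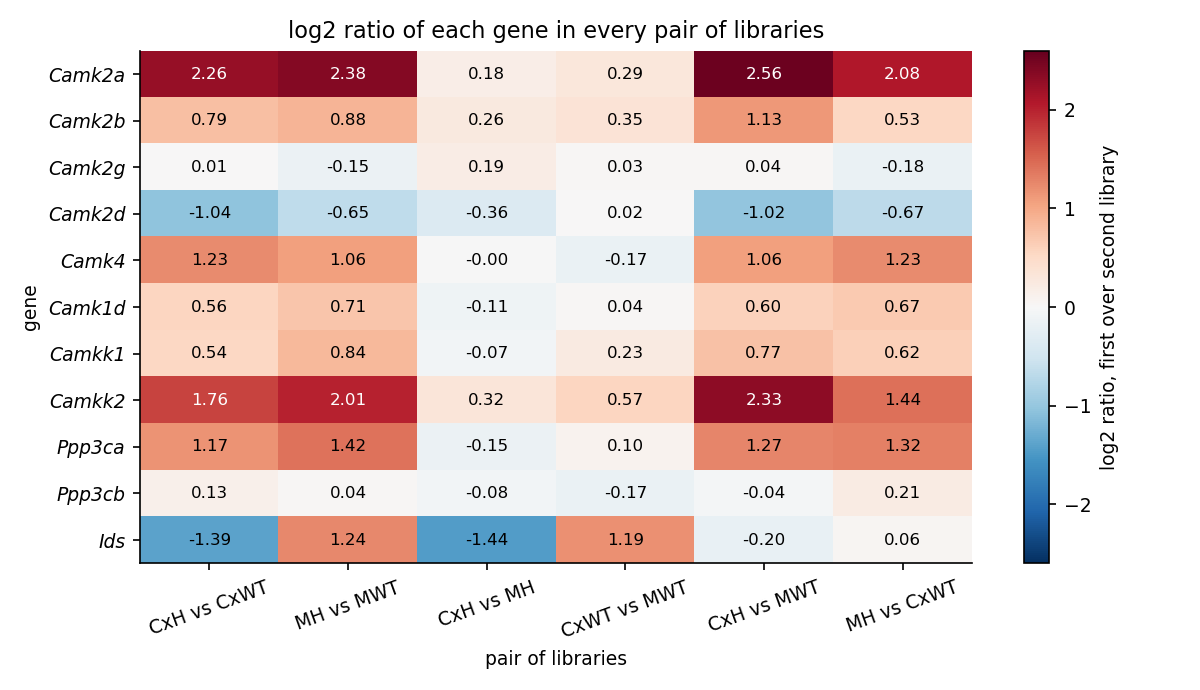
The log2 ratio of each gene and of Ids in the 6 pairs of libraries, first library over second (red above 0, blue below 0). In the columns CxH vs. MH and CxWT vs. MWT, which differ in the area label, the 10 genes stay between -0.36 and 0.57. Ids is at -1.44 and 1.19 there, and in the other columns Camk2a is at 2.08 or more.

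The ratios in Cx and M had the same sign for 9 of the 10 genes, the exception being Camk2g, at 0.0067 and -0.15. The same count over all genes was not made, so the 9 of 10 is not set against a background. The ratio in M minus that in Cx was largest for Camk2d, at 0.38 ± 0.066, then Camkk1, at 0.30 ± 0.058, Ppp3ca, at 0.25 ± 0.033, and Camkk2, at 0.25 ± 0.092. It was most negative for Camk4, at -0.17 ± 0.048. Whether these differences exceed the variation between pools could not be tested.

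Of 88 other genes of the pathway, 83 were in the table, and 25 were called up and 6 down in CxH vs. CxWT, and 32 up and 9 down in MH vs. MWT. The genes called were 37.3% of the 83 in Cx, where 20.9% of all genes were called, and 49.4% in M, where 25.0% were. Their median log2 ratios were 0.38 and 0.49. Between area labels, CxH vs. MH gave 0 calls (3.50% over all genes), and CxWT vs. MWT gave 10 up and 2 down, or 14.5% against 7.54%. The pair CxH vs. MWT gave 38 up and 9 down, or 56.6% against 30.7%, and the pair MH vs. CxWT gave 21 up and 8 down, or 34.9% against 15.3%.

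Among 8 calmodulins and calmodulin-buffering proteins, Nrgn and Caln1 were called up and Gap43 down in CxH vs. CxWT, with Calm3 up and Pcp4 down in addition in MH vs. MWT, which made 37.5% and 62.5% of the list called, against 20.9% and 25.0% of all genes. Nrgn encodes neurogranin, which holds calmodulin in dendritic spines, with 521 RPM in CxH against 73.4 in CxWT, and 374 in MH against 38.3 in MWT. Its log2 ratios of 2.83 ± 0.031 and 3.29 ± 0.045 exceeded those of every one of the 10 genes. Gap43, its axonal relative, had 68.9, 117, 69.1 and 118 RPM and log2 ratios of -0.77 in both areas. Pcp4, which speeds the exchange of Ca2+ on calmodulin, had 122, 99.5, 80.9 and 203 RPM, and its log2 ratio was 0.29 ± 0.033 for Cx but -1.32 ± 0.032 for M. Calm3 encodes calmodulin itself. In the order CxH, CxWT, MH, MWT it had 997, 682, 930.4 and 509 RPM. Its log2 ratio of 0.55 ± 0.012 in CxH vs. CxWT stayed under the threshold and that of 0.87 ± 0.014 in MH vs. MWT passed it.

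Of 15 other CaM kinases and related proteins in the table, 5 were called up in CxH vs. CxWT (Camkv, Camk2n1, Dclk1, Dclk3 and Itpka) and 0 down. In MH vs. MWT 5 were called up (Camkv, Camk2n1, Dclk1, Eef2k and Itpka) and Pnck was called down. The list thus had 33.3% and 40.0% called, against 20.9% and 25.0% of all genes. Itpka, a calmodulin-regulated inositol trisphosphate kinase of dendritic spines, was highest, at log2 ratios of 2.76 ± 0.063 and 3.51 ± 0.082. Pnck, a CaMKI isoform, was lowest, at -0.68 ± 0.043 and -0.99 ± 0.047. Camk2n1, an endogenous inhibitor of CaMKII, had 1155 and 387 RPM in the Cx libraries (CxH, CxWT) and 1127 and 294 in the M libraries (MH, MWT), with log2 ratios of 1.58 ± 0.014 and 1.94 ± 0.017. It stood in the same order of libraries as Camk2a.

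Of 9 phosphatases and downstream kinases of the cascade, only Prkaa1, the alpha 1 subunit of AMPK, was called, down in both areas, at -0.95 ± 0.068 and -0.71 ± 0.066. That is 11.1% of the list, under the 20.9% and 25.0% called over all genes. Stk11, the other upstream kinase of AMPK, was highest in Cx at 0.66 ± 0.067 and Prkab2, an AMPK beta subunit, in M at 0.61 ± 0.062, and neither reached the threshold.

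Of 11 other calcineurin subunits, regulators and anchors, Akap5 and Fkbp1a were called up and Rcan2 and Rcan3 down in CxH vs. CxWT, and Cabin1 and Akap5 up and Rcan2 and Rcan3 down in MH vs. MWT. These were 36.4% of the list in each pair, against 20.9% and 25.0% called over all genes. Fkbp1a, which encodes the FK506-binding protein FKBP12, had log2 ratios of 0.84 and -0.061. Akap5 anchors calcineurin at the postsynaptic membrane and had 90.3, 37.8, 111 and 35.1 RPM, with log2 ratios of 1.25 ± 0.047 and 1.66 ± 0.051. Rcan3, of the family of calcineurin regulators, had 48.1, 102, 42.9 and 100.01 RPM, with -1.08 ± 0.042 and -1.22 ± 0.045.

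Among 15 transcription factors and coactivators, 3 were called up (Crtc1, Mef2c and Mef2d) and Nfatc2 down in CxH vs. CxWT, and 6 up and Nfatc2 down in MH vs. MWT. The called shares were 26.7% and 46.7% of the list, of which the first lies near the 20.9% over all genes. Mef2c, a factor of neuronal differentiation whose activity calcineurin and CaM kinases control, was highest, at 2.03 ± 0.038 and 1.82 ± 0.038. Nfatc2, a substrate of calcineurin, was lowest, at -0.77 ± 0.082 and -0.74 ± 0.096, with 13.5, 23.1, 10.6 and 17.7 RPM.

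The postsynaptic partners and substrates of CaMKII were the list with most calls. Of 14 genes, 9 were called up in CxH vs. CxWT and 11 in MH vs. MWT, with 0 down, or 64.3% and 78.6% of the list, where 20.9% and 25.0% of all genes were called (9.46% and 12.3% up). The medians were 1.06 and 1.28. They included the NMDA receptor subunits Grin2a (1.34 ± 0.073 and 1.77 ± 0.085) and Grin2b (1.27 ± 0.059 and 1.52 ± 0.071), which bind active CaMKII. Actn2, an actinin of spines, was highest in Cx at 1.83 ± 0.15, with 3.60 RPM or less in the wt libraries, and Shank1, a postsynaptic scaffold, in M at 2.11 ± 0.034. Gria1, the AMPA receptor subunit that CaMKII phosphorylates, was lowest, at -0.079 ± 0.017 and 0.19 ± 0.017, with 386, 408, 449.7 and 395 RPM.

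Of 11 calmodulin-dependent phosphodiesterases, cyclases and pumps, 4 were called up (Pde1a, Adcy1, Atp2b1 and Atp2b4) and 1 down (Adcy8) in CxH vs. CxWT. In MH vs. MWT 5 were called up (the same 4 with Atp2b2) and 2 down (Adcy8 and Pde1c), so that 45.5% and 63.6% of the list were called, with 20.9% and 25.0% over all genes. Adcy1 and Adcy8 are the calmodulin-stimulated adenylyl cyclases of brain and ran in opposite directions. Adcy1 had 1038, 382, 966 and 289.9 RPM, with log2 ratios of 1.44 ± 0.015 and 1.74 ± 0.017. Adcy8 had 22.0, 44.8, 22.99 and 40.2 RPM, with -1.03 ± 0.062 and -0.81 ± 0.065.

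**Figure D5:**
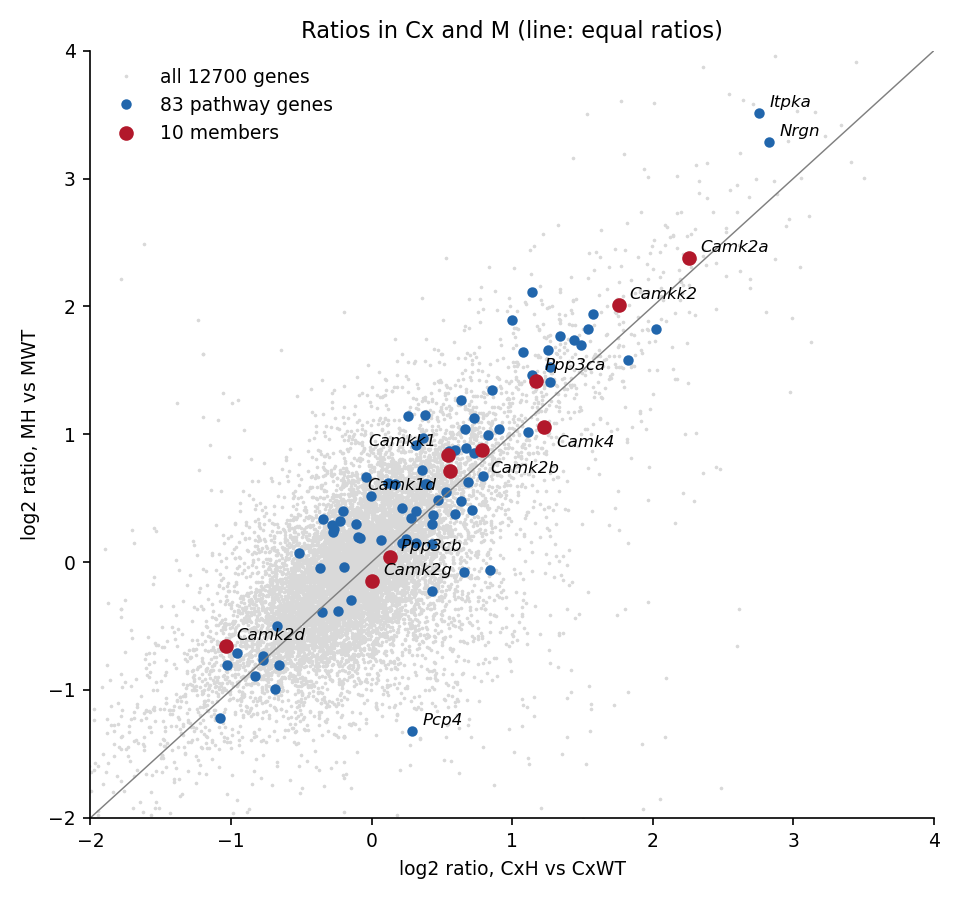
The log2 ratio in MH vs. MWT against that in CxH vs. CxWT for all 12700 genes (grey), 83 pathway genes (blue) and the 10 genes (red); the line marks equal ratios, and genes beyond the axes are not drawn. Camk2a, Camkk2, Ppp3ca and Camk4 lie high in both, Camk2d lies low in both, and Pcp4 lies at 0.29 and -1.32.

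The genes nearest to 3 of the members in profile were found as those with the smallest distance between log2 RPM of the 4 libraries, each gene centred on its mean, among the 11010 genes for which each library held 100 reads or more. For Camk2a they were Pdzrn3, Kcnj4, Rgs14, Egr1 and Grasp, at distances of 0.087 to 0.14. For Camk2d they were Armh4, Zdhhc20, Zfand1, Cfl2 and Prkaa1, at 0.042 to 0.071. For Ppp3ca they were Matn2, Rapgef4, Slc24a4, Hivep2 and Frmd6, at 0.024 to 0.12. With 4 libraries, such likeness is a description only.

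Several measures moved with these ratios. The markers of cortical excitatory neurons had median log2 ratios of 2.36 in CxH vs. CxWT and 2.56 in MH vs. MWT, with 13 and 12 of 15 called up. Of all genes, 9.46% and 12.3% were called up in these pairs and 11.5% and 12.7% down, or 20.9% and 25.0% in either direction. All 16 markers of midbrain and diencephalon neurons were called down in both, with 3 reads or fewer for 7 of them in CxH. Markers of striatal medium spiny neurons summed to 1246 RPM in CxH and 1062 in MH, against 509.8 in CxWT and 497 in MWT. Of these 11, 8 were called up in CxH vs. CxWT and 8 in MH vs. MWT. Tac1 went the other way and was called down in MH vs. MWT, at a log2 ratio of -0.96, and in CxH vs. MWT, at -0.72. Markers of oligodendrocytes summed to 4871 and 5071 RPM in CxH and MH, against 9268 and 7403 in CxWT and MWT. Of these, 7 and 4 of 9 were called down in CxH vs. CxWT and MH vs. MWT, where 11.5% and 12.7% of all genes were. Markers of activated microglia did not follow the kinases: their sums were 1388 RPM in CxH and 1224 in MWT, against 699 in CxWT and 680.4 in MH. Markers of the choroid plexus, 6 of 7 listed, summed to 579 RPM in CxH and 627 in MH, against 143 in CxWT and 262 in MWT. Not every gene of this list followed its sum: 4 of the 6 were called up in CxH vs. CxWT and 3 in MH vs. MWT, but Otx2 was called down in both, at log2 ratios of -1.97 and -1.57. The sums of astrocytes (2005 RPM in MH to 2956 in MWT), endothelial cells (151 in CxWT to 208 in CxH) and hippocampal neurons (160.3 in MWT to 221 in CxWT) did not set CxH and MH apart from both others. Of the 8 astrocyte markers, however, Aqp4 and Slc4a4 were called down in both CxH and MH against each of CxWT and MWT, and S100b in both against MWT. Gfap was called up in CxH vs. CxWT, at a log2 ratio of 1.11, but down in MH vs. MWT. In CxH vs. CxWT 4 of the 8 were above 0 and 4 below. Gene by gene, 5 of the 7 hippocampal markers in the table were nonetheless above 0 in CxH vs. CxWT and in MH vs. MWT, with median log2 ratios of 0.24 and 0.87. In MH vs. MWT 4 of them were called up (Wfs1, Fibcd1, Neurod1 and Zbtb20) and Calb2 down, and in CxH vs. CxWT 0 were called up and Prox1 and Calb2 down. That was 71.4% and 28.6% of the 7, where 25.0% and 20.9% of all genes were called. The share in CxH vs. CxWT thus lay near that of all genes. The medians were 0.93 in CxH vs. MWT, with 4 called up, and 0.36 in MH vs. CxWT, with 1. With the genes called down, 71.4% and 28.6% of the 7 were called there, against 30.7% and 15.3% of all genes. The part of these cell types in the ratios of the 10 genes was not tested.

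The ratios also moved with base composition. Across 10707 genes, which are not independent replicates, Spearman's rho between the GC content of the transcript and the log2 ratio was 0.46 in CxH vs. CxWT, 0.49 in MH vs. MWT, 0.58 in CxH vs. MH, 0.63 in CxWT vs. MWT, 0.69 in CxH vs. MWT but 0.16 in MH vs. CxWT. Camkk2 (56.4% GC), Camk2b (56.3%) and Camkk1 (54.8%) are rich in GC, Camk2a (53.3%) and Camk2g (51.8%) lie between, and Camk1d (46.9%), Camk2d (45.9%), Ppp3ca (45.4%), Camk4 (41.5%) and Ppp3cb (39.8%) are poorer. After the correction for GC content and length, the log2 ratios in Cx and M were 2.14 and 2.1 for Camk2a, 1.57 and 1.69 for Camkk2, 1.62 and 1.15 for Camk4, 1.36 and 1.55 for Ppp3ca, and -0.86 and -0.52 for Camk2d. Those of Ppp3cb rose to 0.58 and 0.43, under the threshold.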

How the data were processed

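RNA from 4 conditions, pooled from 7 mice per genotype, was sequenced by the authors on a SOLiD 3 Plus instrument in a single run. The authors aligned reads to mm9 with PASS, allowing up to 2 mismatches and no gap, and deposited raw counts of reads per gene for reads aligned to 1 gene and genes covered over much of their length. The annotation used for counting, the read length and the use of strand are not given in the sources used here, so antisense reads could not be told apart. All 12700 genes were kept and 12690 matched a RefSeq symbol.

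Counts were divided by the aligned reads per library stated by the study to give RPM. A count of 0 was set to 1 in ratios. Each gene was tested in 6 pairs with a Poisson likelihood ratio test. Calls needed p below 0.05 and a log2 ratio of 0.7 or more in either direction, as in the methods of the study. Within a pair a quasi-likelihood test has no residual degrees of freedom. Over all 4 libraries, edgeR's quasi-likelihood fit of the genotype label with the area as a block leaves 1, and was added after the data were seen, with Benjamini-Hochberg adjusted p below 0.05 and the same log2 threshold. Intervals, standard errors and the floor of 3 reads (0.0779 to 0.104 RPM) cover counting error only, and amplified reads are not independent molecules. Steps were tested on simulated data.

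Members and lists were chosen with earlier results of these data known. From each pathway list the genes with the highest and the lowest ratio in Cx and in M, with at least 100 reads in either library, were named, with any set of 5 or fewer. Named besides, after their values were seen, were Grin2a, Grin2b, Ppp3cc, Ppp3r1 and Camk2n2. One listed gene is not reported here. Positions, GC content and sequences came from GENCODE vM1, in which 12232 genes had a protein-coding transcript. Sequence of Camk2a and Camk4 is not reported here. Alternatives were column totals, TMM factors (edgeR 4.0.16), DESeq2 1.42.0 size factors, a log2 threshold of 1, Benjamini-Hochberg adjustment, a filter of 100 reads, 0.5 added to every count, edgeR's exact test with an assumed coefficient of variation of 0.1 or 0.2, and a correction for GC content and length. R 4.3.3 and Python 3.11.15 were used, the latter with scipy 1.17.1, pandas 2.3.3, numpy 2.4.6 and matplotlib 3.10.9.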

Additional observations from a re-analysis of the deposited data

Results flagged for a closer look

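The sign of the ratios was checked for 45 genes: Ids, the 10 genes and the pathway genes named by rule. Of these, 6 had ratios of opposite sign in the Cx and M pairs. For 4 of them (Ids, Gria1, Pcp4 and Fkbp1a) the 95% counting intervals lay on opposite sides of 0. The same count over all genes was not made. Ids had a log2 ratio of -1.39 in CxH vs. CxWT and 1.24 in MH vs. MWT. Gria1, an AMPA receptor subunit, had -0.079 and 0.19, both under the threshold. Pcp4, a small calmodulin-binding protein, had 0.29 and -1.32, of which the second was called. Fkbp1a had 0.84, which was called, and -0.061, with an interval that nearly reached 0 (-0.12 to -0.0034). For the other 2, one interval held 0: Camk2g had 0.0067 and -0.15, with 0 inside the interval in Cx, and Stk11 had 0.66 and -0.075, with 0 inside the interval in M. With 1 library per condition, these differences between areas were not tested.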

How the results depend on the processing

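Each condition has 1 library, so no replicate could be left out. Each area can serve as a block for the genotype label, though, and the quasi-likelihood fit with this block, chosen after seeing the data, called 6 of the 10 genes, Camk2a, Camk2b, Camk4, Camkk2 and Ppp3ca up and Camk2d down. These are the 6 called in CxH vs. CxWT. Camkk1 (0.69) and Camk1d (0.64) stayed under the log2 threshold. Over all genes this fit called 949 up and 1004 down, or 15.4%. It has 1 residual degree of freedom, takes any difference of the ratios between areas as error, and rests on labels that Ids reads and area markers go against. Both areas were dissected from the same brains, so they are not independent replicates of the genotype. The calls of this fit are therefore no replicated result. In MH vs. MWT the number of the 10 genes called changed from 7 to 4 (Camk2a, Camk4, Camkk2 and Ppp3ca) with a log2 threshold of 1 and to 4, the same genes, with the GC and length correction, while the share of all genes called went from 25.0% to 12.9% and 18.5%. Under the other alternatives, and in the other pairs under all of them, the number called stayed within 1.5 times the main count. The genes called did change within that range. In CxH vs. CxWT Camk2b lost its call with the threshold of 1, the correction and a coefficient of variation of 0.2. Camk1d lost its call in MH vs. MWT with column totals, where Camk2d was called down, and with a coefficient of variation of 0.2. In CxH vs. MWT Camkk1 lost its call with column totals, the threshold of 1, the correction and a coefficient of variation of 0.2, Camk2b lost its call with the correction, and Camk1d gained one. In MH vs. CxWT the number called was 4 with aligned reads, 5 with column totals and 6 with TMM or DESeq2 factors. Ratios near 0 changed sign. With column totals Camk2g was at -0.0096 in CxH vs. CxWT and -0.068 in CxH vs. MWT, Ppp3cb at -0.023 in MH vs. MWT, and Camk2d, Camk2g and Camk1d at -0.071, -0.058 and -0.052 in CxWT vs. MWT. These 3 were at -0.029, -0.016 and -0.0095 with TMM and at -0.029, -0.016 and -0.0094 with DESeq2 factors. Ppp3cb in CxH vs. MWT was at 0.0016 with TMM. With the GC and length correction Camk2g was at -0.045 in CxH vs. CxWT, -0.049 in CxWT vs. MWT and -0.097 in CxH vs. MWT, Ppp3cb at 0.22 in CxH vs. MH, 0.066 in CxWT vs. MWT and 0.65 in CxH vs. MWT, and Camk4, Camk1d and Ppp3ca at 0.34, 0.034 and 0.018 in CxH vs. MH. None of these was called.

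Scaling moved all ratios of a pair together, by -0.11 in CxH vs. MWT with column totals and by 0.11 in MH vs. CxWT with TMM and DESeq2 factors, and by less than 0.1 in size elsewhere. With column totals the calls over all genes in MH vs. MWT were 1377 up and 1896 down. Over all genes, the calls were 814 up and 1129 down in MH vs. CxWT and 1013 and 855 with TMM. With column totals, 1980 up and 1915 down in CxH vs. MWT became 1609 and 2504, 690 and 268 in CxWT vs. MWT became 480 and 390, and 309 and 135 in CxH vs. MH became 257 and 183. A log2 threshold of 1 left 691 up and 710 down in CxH vs. CxWT and 869 and 773 in MH vs. MWT. Depth did not limit the 10 genes, the lowest count being 473 reads, but the variation between pools is unknown.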
